A study of Rattus norvegicus with 4 samples.

Results

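The 10 core genes of the mammalian circadian clock were read in vessels of male rats: Bmal1, Clock, Per1, Per2, Per3, Cry1, Cry2, Nr1d1, Nr1d2 and Dbp. They were chosen by name. Every array probe whose RefSeq accession maps to one of these rat symbols was taken, Arntl being an older symbol of Bmal1. All 10 genes had a probe, 14 probes in all, of 16580 genes with a probe on the array. 8 of the 10 were well above background on all 4 arrays, a call that the scanner software makes for each spot. Clock and Per3 were not well above background on any array and so have no measured level.

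RNA from each of 4 groups was hybridised to 1 array. The groups were untreated vessels of Wistar rats (WT control), vessels of such rats after 24 h of angiotensin II (WT Ang II), untreated vessels of rats with a PKCbeta deletion (KO control), and vessels of the deletion rats after 24 h of angiotensin II (KO Ang II). Angiotensin II is a peptide hormone that constricts vessels, and protein kinase C beta is a kinase that acts downstream of receptors such as that of angiotensin II. The design names 4 male rats per genotype, so how their RNA was combined on single arrays is unknown from the sources used here. The vessel taken and whether the deletion is in all cells are unknown too. Whether angiotensin II was given to the rats or to isolated vessels in culture is also unknown. So is the hour of the day at which vessels were collected, which is the variable that clock genes follow most closely.

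The clock is a loop of transcription and repression that runs in nearly every cell, with vascular smooth muscle and endothelium among them. The proteins BMAL1 and CLOCK bind E-box elements and switch on the Per, Cry, Nr1d and Dbp genes, and the PER and CRY proteins then inhibit BMAL1 and CLOCK. The NR1D proteins (REV-ERB) repress Bmal1 through RORE elements, so that Bmal1 transcripts peak roughly opposite to those of Nr1d1 and Dbp. In vessels the loop is known for daily rhythms in tone and blood pressure.

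The letters that these regulators read are shown here for the genes on which the comparisons below turn. They come from RefSeq on the GRCr8 assembly, which supplied windows of 250 bases before the transcript start for 9 of the 10 genes. Each is written 5' to 3' on the gene's own strand, with the matched motif in capitals. The motifs searched on both strands were the E-box CACGTG (in 5.59% of 33469 promoter windows of this length), its variant E'-box CACGTT (4.07%), the D-box TTATGTAA bound by DBP (0.828%), the RORE core TAGGTCA (2.26%) and the cAMP response element TGACGTCA (1.59%). Cry2 was the only clock gene to pass 2-fold between arrays, and its window lies at chr3:98860438-98860687 on the minus strand, with an E'-box read on the opposite strand at bases -212 to -207.
Cry2: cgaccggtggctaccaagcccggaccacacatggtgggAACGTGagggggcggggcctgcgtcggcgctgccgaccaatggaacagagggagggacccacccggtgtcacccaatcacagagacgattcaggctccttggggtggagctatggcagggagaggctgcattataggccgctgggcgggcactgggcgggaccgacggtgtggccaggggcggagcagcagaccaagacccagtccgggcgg
Nr1d1 had a window at chr10:84231813-84232062 on the minus strand with an E'-box, also on the opposite strand, at -174 to -169.
Nr1d1: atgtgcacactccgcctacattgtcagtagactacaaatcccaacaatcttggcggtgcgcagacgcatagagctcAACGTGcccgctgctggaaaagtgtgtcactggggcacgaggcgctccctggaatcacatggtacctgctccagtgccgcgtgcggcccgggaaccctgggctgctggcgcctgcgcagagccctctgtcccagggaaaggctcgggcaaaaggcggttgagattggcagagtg
A second Nr1d1 start carried an E-box at -191 to -186, shown with its flanks (chr10:84229628-84229657, minus strand).
Nr1d1 E-box: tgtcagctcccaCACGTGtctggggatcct
For Bmal1 the RORE core lay at -16 to -10 (chr1:176766298-176766327, plus strand), the kind of element that NR1D proteins bind.
Bmal1 RORE: gggaaggcagaaagTAGGTCAgggacggag
Per2 held an E'-box at -62 to -57 (chr9:99497038-99497067, minus strand) and a D-box at -192 to -185 (chr9:99497167-99497196, minus strand).
Per2 E'-box: aacgcgcgcggtCACGTTttccactatgtg
Per2 D-box: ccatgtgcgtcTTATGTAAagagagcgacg
The windows of Per1, Nr1d2, Dbp, Clock and Per3 held none of the letters searched. A match is a description of the sequence and shows no binding.

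Levels below are the log2 of the processed signal less the 75th percentile of that array, called scaled log2 signal. They are given in the order WT control and WT Ang II, then KO control and KO Ang II. The scanner's own error of a level was 0.14 to 0.19 on the log2 scale for the 10 clock probes well above background on all 4 arrays. That error covers the reading of a spot and no difference between animals. With 1 array per group no difference between 2 arrays can be tested, and a difference of 2-fold was the size counted. A lower level in whole vessel can come from fewer cells of a type or from less RNA per cell, and these cannot be told apart.

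**Figure D1:**
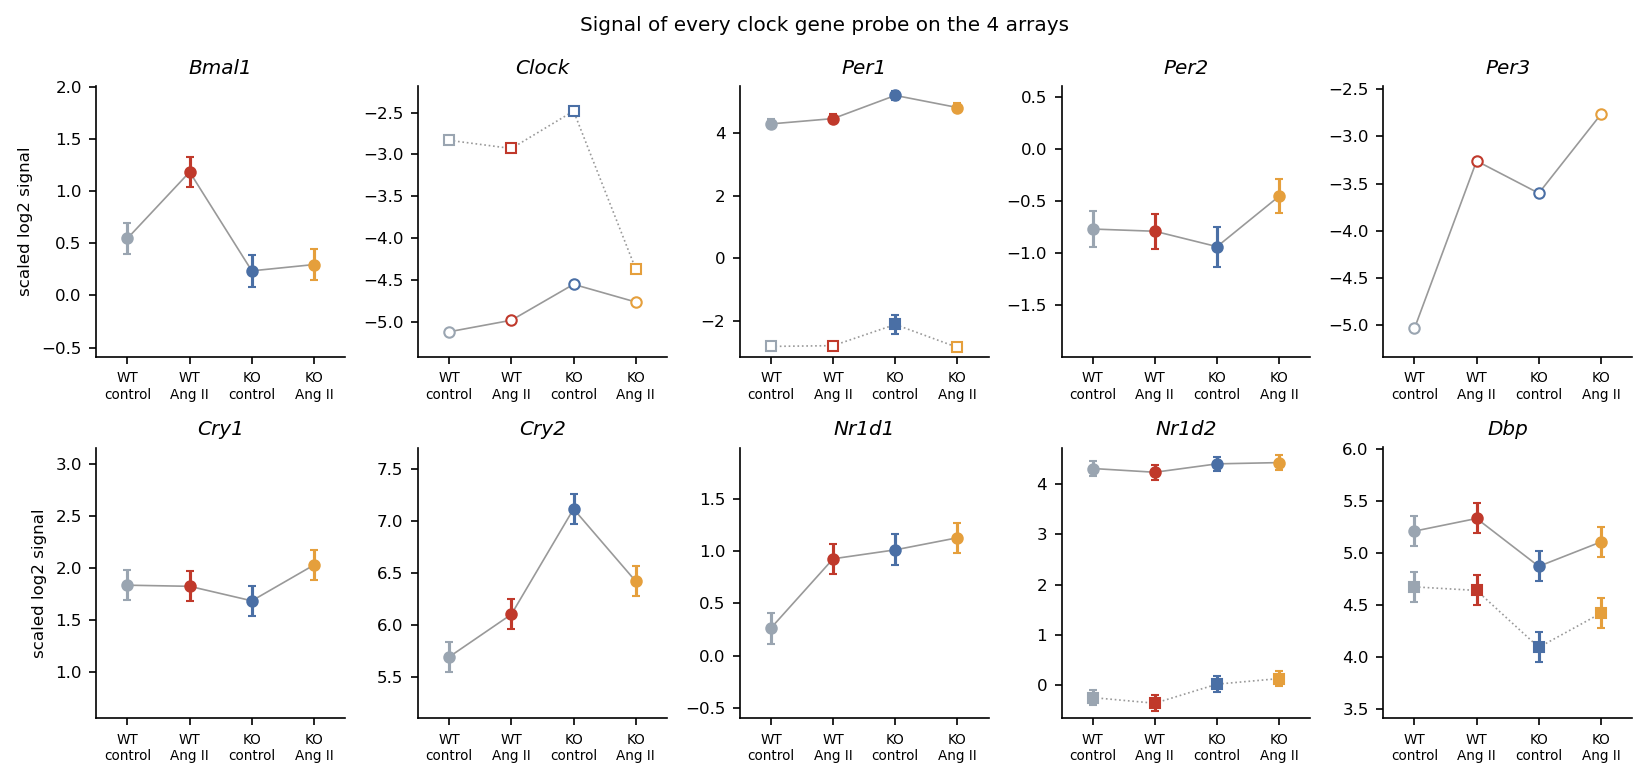
Scaled log2 signal (defined as in the text) of every clock gene probe on the 4 arrays, with vertical axes that differ between genes. Circles and squares are different probes of a gene, filled symbols are well above background and open ones are not, and bars show the scanner's error. Cry2 was highest in KO control at 7.12, Bmal1 was highest in WT Ang II at 1.19, and Nr1d2 was nearly level.

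Bmal1, the partner of CLOCK in the activating complex, read 0.55, 1.19, 0.24 and 0.30. Its level was thus highest in WT vessels after angiotensin II, and both KO arrays lay below both WT arrays. The difference for Ang II in WT was 0.64 log2, or 1.55-fold, which is more than 2 scanner errors. In KO the same difference was 0.06. Between genotypes Bmal1 differed by -0.31 without Ang II (-0.19 with the normexp background correction) and by -0.89, or 1.85-fold lower in KO, with Ang II. Over the 4 arrays its range was 0.95, and 13.6% of 8600 genes measured on all arrays had a wider range. Clock, the other subunit, had 2 probes that read between -5.12 and -2.48 and were not well above background anywhere.

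Per1, a repressor that is also an immediate target of hormone and cAMP signals, read 4.29, 4.45, 5.19 and 4.81. Both KO arrays were higher than both WT arrays. Without Ang II the KO array was 0.91 higher, or 1.87-fold, and 8.92% of 9582 genes differed by more in either direction. With Ang II the difference was 0.35, and 0.15 with the mean of both Per1 probes. The other Per1 probe was well above background only in KO control, where it read -2.10. Per2, the second repressor, read -0.77, -0.79, -0.94 and -0.46, a range of 0.48 close to the median range of all genes, 0.50. Its largest difference was 0.48 for Ang II in KO, which became 0.14 with normexp. Per3 read -5.03, -3.26, -3.60 and -2.77 with no array well above background, so these readings give no order.

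Cry2, which encodes a cryptochrome that inhibits BMAL1 and CLOCK, had the widest range of the 8 measured genes. It read 5.70, 6.11, 7.12 and 6.42. Its level was lowest in WT control and highest in KO control, and the neighbours in that order (WT control, WT Ang II, KO Ang II, KO control) were each further apart than the scanner's error of a difference, 0.20. KO control stood 1.42 log2 above WT control, which is 2.68-fold, and 97 of 9582 genes lay further in that direction. Between the arrays with Ang II the difference was 0.32 (0.11 with normexp). The difference for Ang II was 0.41 in WT and -0.69 in KO, of opposite sign. Cry1, the other cryptochrome, did not follow it. Cry1 read 1.84, 1.83, 1.69 and 2.03, a range of 0.34, and 70.5% of genes had a wider one. In the RefSeq annotation the span of Cry2 overlaps a long non-coding RNA gene and that of Cry1 another gene, and signal from such neighbours was not separated here.

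Nr1d1 encodes REV-ERB alpha, the repressor of Bmal1. Nr1d1 read 0.26, 0.93, 1.01 and 1.13, so that WT control stood alone below the other 3 arrays, which differed among themselves by no more than 0.20. The difference was 0.66, or 1.59-fold, for Ang II in WT. It was 0.75, or 1.68-fold, between KO and WT without Ang II. With normexp these became 0.30 and 0.24. Thra, a thyroid hormone receptor gene whose span overlaps that of Nr1d1, differed by -0.11 and -0.12 in the same comparisons. Nr1d2, the related receptor REV-ERB beta, was level at 4.31, 4.24, 4.40 and 4.43. Its range of 0.19 was among the narrow ones, with 90.6% of genes ranging more widely. A second Nr1d2 probe read -0.24, -0.35, 0.03 and 0.14, also higher in KO.

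Dbp, a PAR bZIP factor that drives D-box genes and swings widely over the day in many tissues, was read by a probe with 8 spots at 5.21, 5.33, 4.87 and 5.11. Both KO arrays lay below both WT arrays. The differences between genotypes were -0.34 without Ang II and -0.23 with it. The other Dbp probe gave 4.67, 4.64, 4.09 and 4.42, with differences of -0.58 and -0.22. Its range of 0.46 on the 8-spot probe was narrower than in 55.1% of genes.

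**Figure D2:**
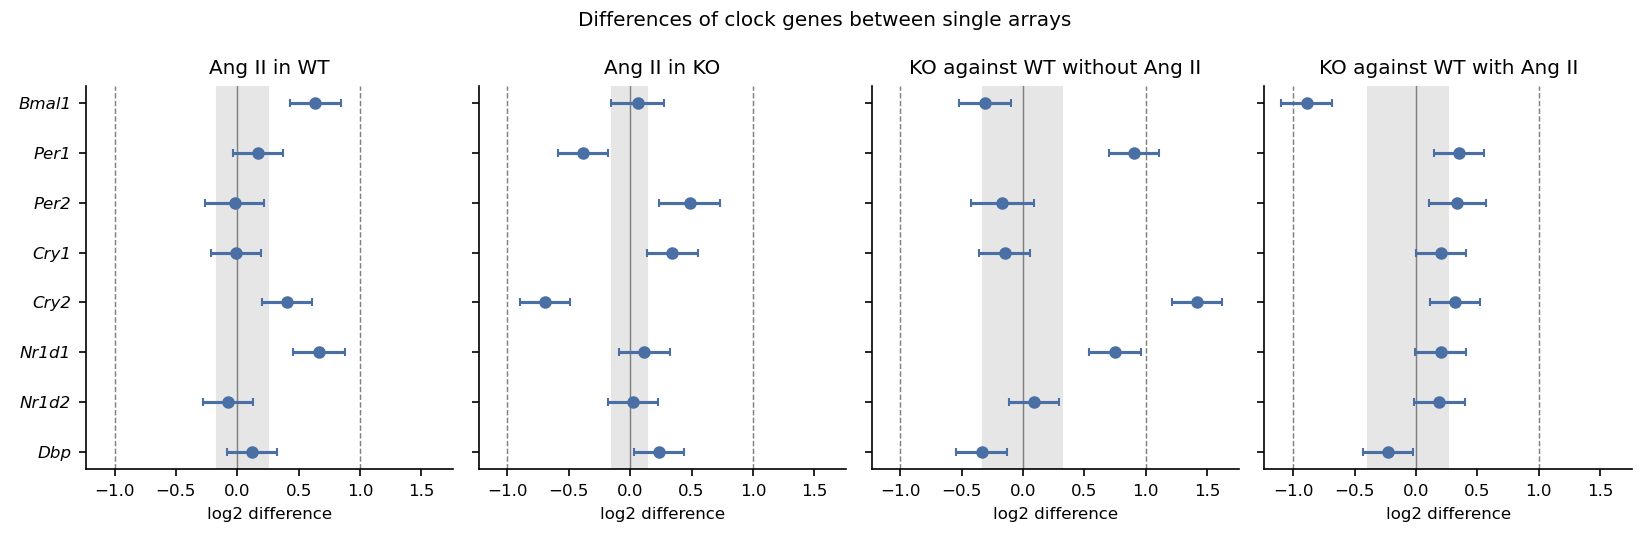
Log2 difference of each measured clock gene between 2 single arrays, one panel per comparison, with bars of 1 scanner error of the difference. Dashed lines mark 2-fold and the grey band spans the middle 50% of all genes compared. Cry2 at 1.42 in KO against WT without Ang II is the 1 point past 2-fold.

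Ang II in WT was the first comparison that the design implies. No clock gene of the 8 reached 2-fold, against 2.02% of 9812 genes higher and 0.999% lower. The 8 differences ran from -0.07 (Nr1d2) to 0.66 (Nr1d1) with a median of 0.15, beside 0.04 for all genes. 3 of them, Nr1d1, Bmal1 and Cry2, exceeded 2 scanner errors, and all of these were higher with Ang II. Cry2 did so only just, and not under the other scalings (0.30 to 0.37). In KO, again, 0 of 8 reached 2-fold, where 0.443% of 9264 genes did so upward and 1.4% downward (41 and 130 genes, or 55 and 102 under quantile normalization). The median there was 0.09. Only Cry2, at -0.69, exceeded 2 scanner errors.

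KO against WT without Ang II had 1 of 8 clock genes at least 2-fold higher (Cry2) and none lower. Over all 9582 genes 2.92% were higher and 4.06% lower by that size. Per1 at 0.91 and Nr1d1 at 0.75 also exceeded 2 scanner errors, and Dbp, Bmal1, Per2 and Cry1 lay between -0.34 and -0.15. The median of the 8 was -0.03, beside 0.01 for all genes. With Ang II, 0 of 8 reached 2-fold, against 1.95% of 9644 genes higher and 5.21% lower. There 6 of 8 clock genes were above 0 by 0.19 to 0.35, and Bmal1 at -0.89 and Dbp at -0.23 were below. The comparisons share arrays, so a high reading of 1 array enters more than 1 of them: Cry2 was high on the KO control array both in the genotype difference and in the difference for Ang II in KO.

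The difference of the responses, KO minus WT, was at least 2-fold for 1 of 8 genes. Cry2 was lower there by this measure, at -1.10, where 1.27% of 8600 genes were higher and 2.87% lower. Under quantile normalization Cry2 missed 2-fold. Bmal1 followed at -0.58, Per1 and Nr1d1 at -0.55 each, Per2 at 0.51, Cry1 at 0.35, Dbp at 0.11 and Nr1d2 at 0.10. The Nr1d1 value became -0.04 and the Per2 value 0.13 with normexp.

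An additive fit in limma, with genotype and treatment as terms and 1 residual degree of freedom, was the one test that 4 single arrays allow. It takes the response to be equal in both genotypes, which the Cry2 readings above are not. After Benjamini-Hochberg adjustment over 9387 genes, limma called 0 of 8 clock genes and 0% of all genes for genotype, and likewise 0 of 8 and 0% for treatment. At an unadjusted p under 0.05 it listed 2452 genes for genotype, with Per1, Bmal1 and Cry2 among them, and 360 for treatment with none of the 8. For genotype, limma gave Per1 0.63 (SE 0.20, adjusted p = 0.166), Bmal1 -0.60 (SE 0.21, adjusted p = 0.178) and Cry2 0.87 (SE 0.31, adjusted p = 0.186). Nr1d1 was at 0.48 (SE 0.20) with an adjusted p of 0.232 from limma, and Dbp at -0.28 (SE 0.15) with 0.314. For treatment every clock gene had an adjusted p of 1 in limma.

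Whether the arrays differed in clock phase was asked by setting genes that peak together against genes that peak opposite. The E-box arm held Dbp, Nr1d1, Nr1d2, Per1, Per2 and the PAR bZIP gene Tef, 6 measured of 10 listed. Cry1 and Cry2, though also switched on by BMAL1 and CLOCK, were not listed in it. The contrast thus depends on a choice of genes made with earlier results of these data known. The RORE arm held Bmal1, the Clock relative Npas2 and the D-box repressor Nfil3, 3 measured of 4 listed. A shift of phase can move the arms apart, in one direction or the other, whereas an equal gain or loss of all genes would move them together. Other changes, such as in the mix of cells, can also move the arms apart, and the contrast does not tell these from phase. The contrast given is the median difference of the E-box arm minus that of the RORE arm, with no test.

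**Figure D3:**
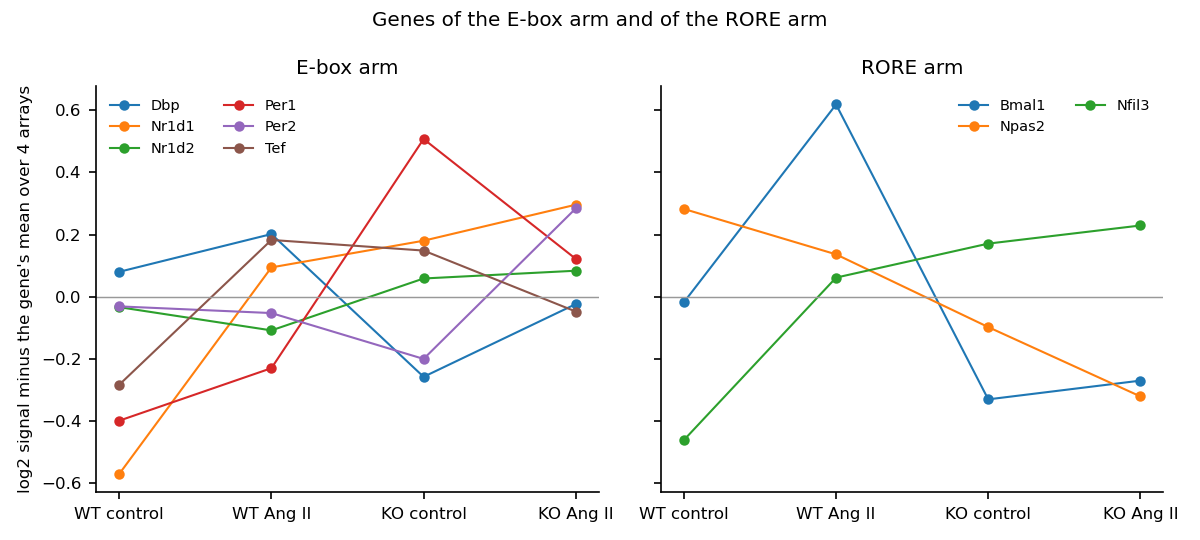
Log2 signal of each gene of the E-box arm (left) and of the RORE arm (right) on the 4 arrays, relative to the gene's own mean over them. Bmal1 was 0.62 above its mean in WT Ang II and Per1 0.51 above its mean in KO control, and no array has all genes of an arm on one side of 0 with all genes of the other arm on the opposite side.

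In KO against WT the E-box arm lay above the RORE arm. The contrast was 0.57 without Ang II (medians 0.26 and -0.31) and 0.65 with it (0.20 and -0.46). Without Ang II the middle 50% of all genes ran from -0.33 to 0.32, and both arm medians lay inside it. With Ang II it ran from -0.39 to 0.26, with the E-box median inside and the RORE median below. Bmal1 and Npas2 were lower in KO in both comparisons, Npas2 at -0.38 and -0.46, and Per1, Nr1d1 and Nr1d2 were higher in both. The Nr1d2 differences, 0.09 and 0.19, and that of Nr1d1 with Ang II, 0.20, were smaller than 1 scanner error of a difference. Each arm also had genes on the other side, and Per2 and Tef took opposite signs in the 2 comparisons. Dbp was lower in KO in both comparisons, and Nfil3 was higher by 0.63 and 0.17. The contrast without Ang II was 0.33 with normexp and 0.30 when each arm was averaged instead of taking its median. With Ang II it was 0.39 with normexp. It was 1.09 when only core genes were kept, which sets the E-box arm without Tef against Bmal1 alone.

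Ang II gave a contrast of -0.38 in WT (medians 0.15 and 0.52), and -0.12 with the mean of each arm. There Bmal1, Nfil3 and Nr1d1, genes of both arms, were all higher, at 0.64, 0.52 and 0.66. In KO the contrast was 0.01. The difference of the responses had a contrast of 0.24, and 0.68 when only core genes were kept, with Bmal1 alone in the RORE arm. Single arrays without a time series give no phase in hours. The hours at which the 4 groups were collected are unknown and cannot be told apart from the groups.

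Other genes of the loop were read from lists. Of 11 loop partners, 7 had a probe and 5 were measured, and none reached 2-fold in any comparison. Bmal2, a paralogue of Bmal1, was at -0.79 in KO without Ang II and at -0.01 with it, but another Bmal2 probe gave 0.76 and 0.23. Nfil3 read 0.46, 0.98, 1.09 and 1.15, the same order as Nr1d1, whose protein represses it. Tef was 0.47 higher with Ang II in WT and Bhlhe40, an E-box repressor, was at -0.41 there and 0.35 in KO.

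Among 11 genes of clock protein turnover, 9 were measured. Csnk1e, the casein kinase that phosphorylates PER proteins, read 0.42, 0.04, 1.54 and 1.26, so both KO arrays were clear of both WT arrays. It was 1.12 higher in KO without Ang II and 1.21 with it, the only gene of the list past 2-fold in each, and below 2-fold in each with normexp. In the additive limma fit its genotype difference was 1.17 with a Benjamini-Hochberg adjusted p of 0.098. Its close relatives Csnk1d and Csnk1a1 were at 0.20 and 0.16 without Ang II. Fbxw7, a ubiquitin ligase subunit, was 0.61 and 0.82 higher by its brightest probe and was at -0.31 and -0.16 by another probe with 10 spots. Timeless was measured only as a bound.

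All 12 rhythmic output genes were measured, and their medians lay between 0.01 and 0.09 in the 4 pairwise comparisons. Lonrf3 alone reached 2-fold, at 1.05 in KO against WT with Ang II. Tspan4 was 0.88 higher with Ang II in WT, and Wee1, a kinase that delays mitosis and a direct E-box target, was at -0.78 and -0.64 in KO without and with Ang II by its brightest probe and at 0.22 and 0.92 by another. Usp2 and Tsc22d3, which follow the clock closely in many tissues, were 0.55 and 0.63 higher in KO without Ang II.

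**Figure D4:**
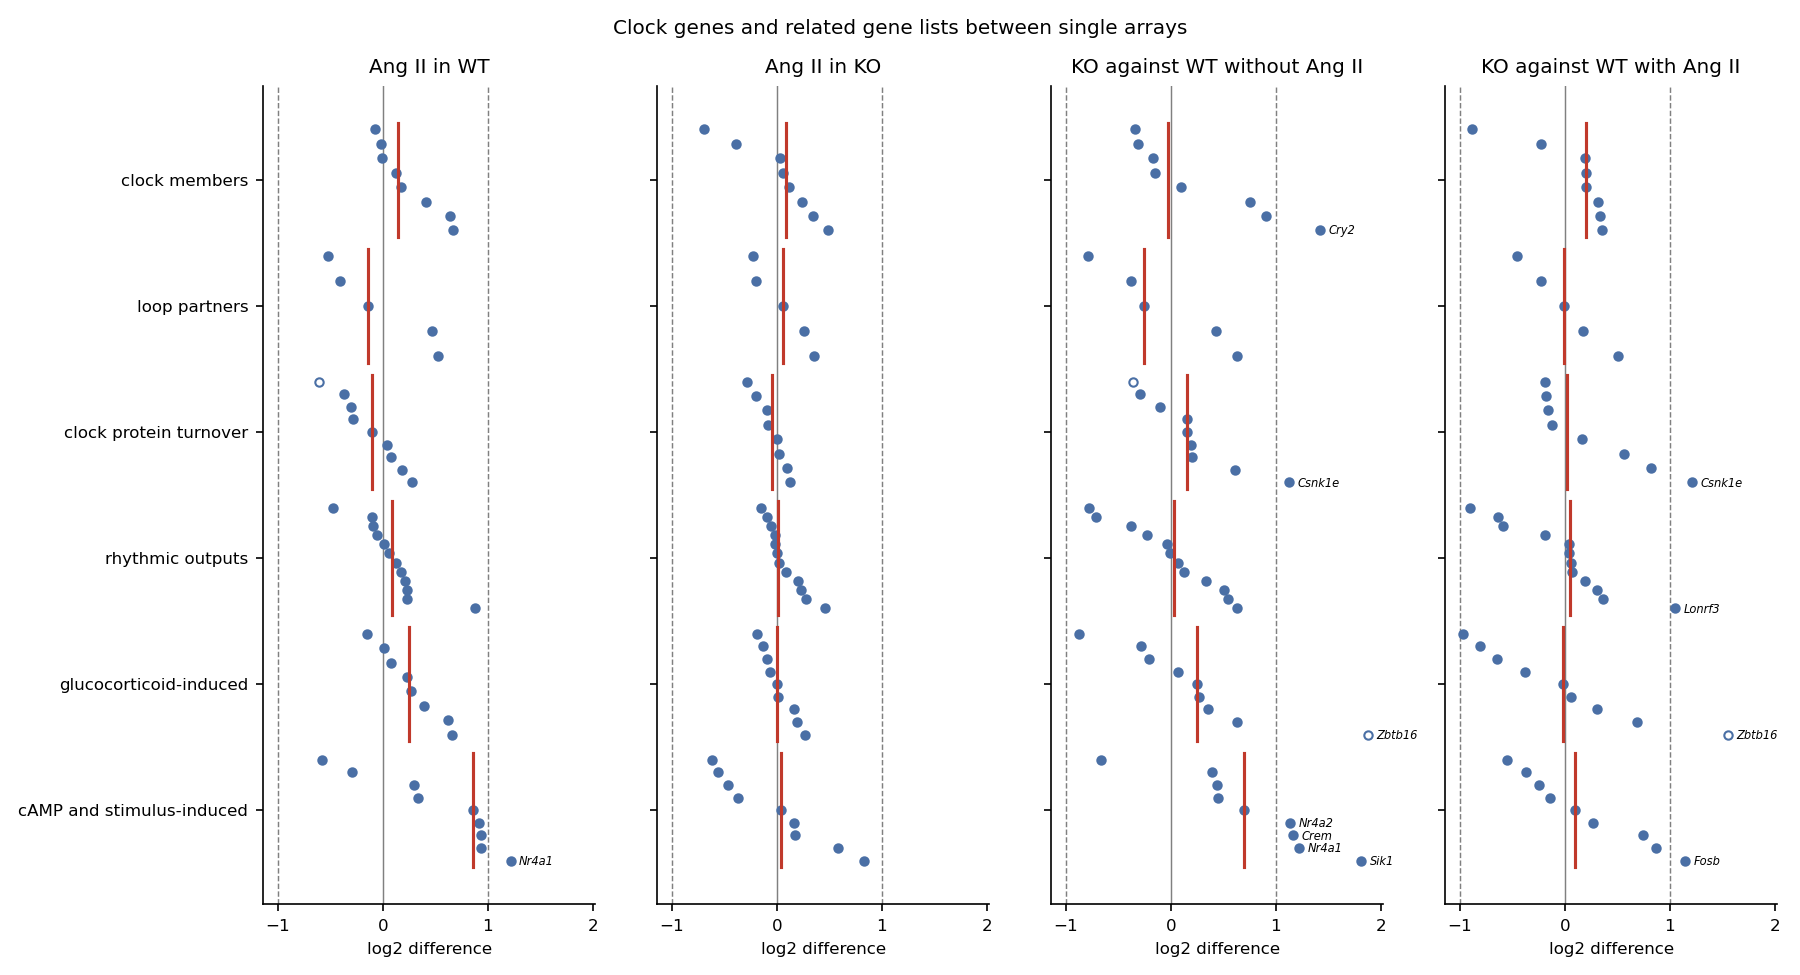
Log2 difference of each measured gene of the clock and of 5 related lists, one panel per comparison. Each point is a gene, open points are bounds, red bars are list medians, dashed lines mark 2-fold, and genes past it are named. The list of cAMP and stimulus-induced genes has medians of 0.85 for Ang II in WT and 0.69 between untreated KO and WT.

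Per1 and Nr1d1 are also switched by hormones and by acute stimuli, so genes induced the same way were read beside them. Of 10 cAMP and stimulus-induced genes, 9 were measured. Nr4a1, an orphan nuclear receptor gene, read 3.57, 4.79, 4.79 and 4.23, lowest in WT control as Nr1d1, Per1 and Cry2 were. Sik1, a kinase that curbs CREB-driven transcription, read 3.51, 3.85, 5.33 and 4.71, in the same order of arrays as Cry2 and Per1. Crem, a cAMP-responsive repressor, read 5.03, 5.97, 6.20 and 5.83. The measured genes of the list that were not lowest in WT control were Atf3 and Fosb. Atf3 read 4.55, 3.97, 3.89 and 4.72, and Fosb 0.73, 0.44, 1.42 and 1.58. A shared order over single arrays cannot rank how alike genes are. In KO without Ang II, 4 of 9 were at least 2-fold higher, Sik1 at 1.81, Nr4a1 at 1.22, Crem at 1.16 and Nr4a2 at 1.14, with a median of 0.69. Of all 9582 genes, 2.92% were higher by that size, and the list was chosen with earlier results of these data known. With normexp 1 gene of the list passed 2-fold. For Ang II in WT the median was 0.85, with Nr4a1 at 1.22. With Ang II on both sides, KO against WT had a median of 0.09 and Fosb alone past 2-fold, at 1.14, with none past it under normexp. The difference of responses had a median of -0.81, with Nr4a1 at -1.78, Nr4a2 at -1.38 and Crem at -1.30, and Atf3 the other way at 1.41. What part these stimuli have in the Per1, Nr1d1 and Cry2 readings was not tested.

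Glucocorticoids reset clocks of peripheral tissues, and of 10 genes they induce 9 were measured. Zbtb16 was not well above background in either WT array and was higher in KO by at least 3.68-fold in untreated vessels and by at least 2.93-fold after Ang II. With normexp no gene of the list reached 2-fold in either comparison. Normexp adds an offset of 50 to every signal. That exceeds the Zbtb16 signals in KO, 15.72 and 17.45, so a difference this dim shrinks by construction. Sgk1 went the other way, at -0.88 and -0.97. Fkbp5 was 0.27 and 0.69 higher, and the list medians were 0.25 and -0.02. The list therefore had members far from 0 on both sides in both genotype comparisons.

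Markers of cell types moved with genotype as well. All 7 smooth muscle markers, with Acta2 and Myh11 among them, were higher in KO without Ang II (median 0.61), and 6 of 7 with it (0.56). The log2 of their summed scaled signal was 6.98, 6.91, 7.40 and 7.55. Macrophage markers, 5 of 6 measured, had a median of -1.08 without Ang II and -0.30 with it, and summed levels of 4.36, 4.81, 3.41 and 3.79. Fibroblast markers, 5 of 6 measured, had medians of -0.39 and -0.75 and summed levels of 8.55, 8.66, 8.22 and 8.06. Without Ang II, 2 of the 5 went the other way, Dcn at 0.14 and Pi16 at 0.50. Col1a1 was at -1.52 there by its brightest probe and at -0.48 by another. Endothelial markers, all 6 measured, had medians of -0.35 and -0.12 and summed levels of 5.19, 5.06, 4.86 and 4.94. The labelled tissue thus showed smooth muscle and endothelial markers on every array. None of 3 T cell markers was well above background. Of the brown fat genes Ucp1 was not either, whereas Cidea was on all arrays, at 0.08, 0.58, -0.70 and -0.54, which is -0.79 and -1.12 in KO against WT without and with Ang II. Of 4 skeletal muscle markers 1 was measured (Ckm), and of 3 neuronal ones 1 (Tubb3). The white fat genes Adipoq and Retn, 2 of 5 listed, were well above background on all arrays but KO control. The part of these shifts in the clock gene readings was not tested.

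The arrays themselves were alike in quality. Between 40.7% and 43.6% of probes were well above background, no spot was saturated, and the 4 arrays shared 1 slide and 1 scan. Each group had its own position on that slide, which cannot be told apart from the group. Prkcb, the deleted gene, was lower in KO by at least 2.11-fold in untreated vessels and by at least 2.54-fold after Ang II. Whether its probes lie in the deleted part is unknown here.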

How the data were processed

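The intensity values were deposited as 1-colour scanner output, with 1 file for each array. The processed signal had its background subtracted and was detrended within the array, per the file headers, with no normalization between arrays. Error columns are intensities too, and the flags that mark outlier spots and signal well above background hold 0 or 1, per the file headers. Feature Extraction is given as version 12.1.1.1 in the submitters' processing notes and as 10.7.1.1 in the headers, which leaves its version unsettled. The log2 values of the authors' deposited table lay within 0.01 of log2 processed signal plus 1 constant per array for at least 98.3% of probes. Medians of its columns were 2.29, 2.22, 2.27 and 2.11, and the reason for the constants is unknown here.

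Spots marked as outliers (301 to 372 per array) were dropped, the spots of each probe were averaged, and the 75th percentile of the array (58.7, 62.5, 47.3 and 52.1 as signal) was subtracted on the log2 scale. Accessions without versions linked 21107 of 45594 probes to a rat gene in a RefSeq table of GRCr8, and 24487 stayed unnamed. The brightest probe stood for a gene, among probes above background (by the flag) on at least 1 array. Where the flag failed on 1 of 2 arrays compared, that side took its own value or that of the dimmest flagged probe, whichever was higher. The result is written as "at least". Some probes without the flag read brighter than the dimmest flagged probe of their array, so "at least" is no firm lower limit.

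Members and gene lists were chosen with earlier results of these data known. All 10 members were named, and of other lists the genes at least 2-fold different or the largest up to 4. The additive fit was run in limma 3.58.1 (R 4.3.3) over genes flagged on at least 2 arrays, with 3.13 prior degrees of freedom and Benjamini-Hochberg adjustment at 0.05, and was tested on simulated data. Python 3.11.15, numpy 2.4.6 and pandas 2.3.3 did the rest. The number of arrays limits the precision. Alternatives were 3 other scalings, normexp background correction with an offset of 50, the deposited table, the mean of a gene's probes, each other probe, a stricter and no filter on dim genes, 1.5-fold, and other forms of the arm contrast.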

Additional observations from a re-analysis of the deposited data

Results flagged for a closer look

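For 5 clock genes the difference for Ang II had one sign in WT and the opposite sign in KO. The difference between the responses was not tested, since each rests on 1 array per group. KO minus WT, it was -1.10 for Cry2 (0.41 in WT, -0.69 in KO), -0.55 for Per1 (0.17 and -0.39), 0.51 for Per2 (-0.02 and 0.48), 0.35 for Cry1 (-0.01 and 0.34) and 0.10 for Nr1d2 (-0.07 and 0.02). For Cry2 the KO difference exceeded 2 scanner errors. The WT difference of Cry2 passed that size only just, and not under the other scalings (0.30 to 0.37). The WT differences of Per2, Cry1 and Nr1d2 were smaller than 1 scanner error, and each changed sign under 1 alternative.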

How the results depend on the processing

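The 8 measured clock genes gave 40 differences over the 5 comparisons, and 34 of them kept their sign under every alternative tried. Of 290 alternative values 284 kept the sign, and 10 moved by more than the scanner error, 8 of them with normexp and 2 with another probe of the gene. None past the size rule reversed. Part of this was fixed in advance. The stricter filter returned the main value for every measured clock gene, all being well above background on all 4 arrays. The mean of a gene's probes did so for Bmal1, Per2, Cry1, Cry2 and Nr1d1, which have 1 probe each. The deposited table held nearly the same signal again. Normexp added an offset of 50 to every signal, where the 75th percentiles of the arrays were 47.3 to 62.5 as processed signal. Log2 differences of dim genes therefore tend to shrink under it, so falling short of 2-fold there was partly built in. With 1.5-fold in place of 2-fold, clock genes past the size numbered 2 (Ang II in WT), 1 (Ang II in KO), 3 (untreated KO against WT) and 1 (KO against WT, both with Ang II). Genes of the loop partner, turnover and output lists then numbered 2 for Ang II in WT, 7 between untreated genotypes, 6 between treated ones and 5 for the difference of responses. These counts stand without the share of all genes past 1.5-fold, so they show no excess among clock genes. Between untreated genotypes, 22.36% of 9582 genes differed by more than Fbxw7 (1.52-fold). Between treated ones, 24.34% of 9644 differed by more than Klf15 (1.51-fold). With treatment, 12.08% of 9812 genes moved further than Dusp1 (1.54-fold) in WT vessels. In KO vessels 6.49% of 9264 moved further than Sik1 (1.53-fold). Quantile normalization left 0 clock genes past 2-fold for the difference of responses. Normexp left 0 genes of those other clock lists past 2-fold between genotypes, untreated or treated. The arm contrast moved to -0.12 for Ang II in WT with the mean of each arm. Between untreated genotypes it became 0.33 with normexp and 0.30 with the mean, and between treated ones 0.39 with normexp and 1.09 with core genes only. With core genes only, where Bmal1 alone stood for the RORE arm, it was 0.68 for the difference of responses. Its sign was kept in each of these, and the cause of these moves was not tested.

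Over all genes, normexp lowered the counts past 2-fold to 29 higher and 8 lower (Ang II, WT), 0 and 4 (Ang II, KO), 25 and 89 (untreated genotypes), 18 and 137 (treated genotypes), and 20 and 50 (difference of responses). Requiring all 4 arrays above background gave 97 and 30, 10 and 40, 156 and 238, and 137 and 345 in the first 4. No scaling moved the median of all genes by over 0.1. The limma fit called 0 genes after Benjamini-Hochberg adjustment under every alternative run, with 2252 to 2504 genes at an unadjusted p under 0.05 for genotype and 295 to 723 for treatment. Leaving out an array leaves no residual degrees of freedom, so that alternative could not be fitted. No paired analysis was possible because the groups compared share fewer than 2 replicate numbers.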
